A study of Drosophila melanogaster with 22 samples.

Results

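The genes described here encode aminoacyl-tRNA synthetases, measured in Drosophila S2 cells treated with double-stranded RNA (dsRNA) against components of the RNA exosome. They were taken by symbol: a gene counted if its probe set carried 1 current symbol made of an amino acid's three-letter code and RS, with -m added for the mitochondrial enzyme. By this rule 29 genes of the 11982 with 1 symbol on the array were members, each represented by its brightest probe set. By symbol alone, 15 were counted as cytosolic (no -m) and 14 as mitochondrial (-m). Some genes counted as cytosolic, among them GlyRS and ThrRS, had no partner with -m among the members. Where each enzyme acts was not checked, so a gene counted as cytosolic may also serve mitochondria. All 29 were bright enough to be tested, and none lay at the lowest value used on any array. The symbols AlaRS-m, AspRS and MetRS were not analysed here.

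A synthetase joins 1 amino acid to its matching tRNA, and the ribosome depends on this step for the fidelity of translation. Cytosol and mitochondria use separate sets of enzymes, both encoded in the nucleus, although in some animals a single gene makes an enzyme for both places, as human GARS1 and KARS1 do for glycine and lysine. In animals several cytosolic synthetases are held with scaffold proteins in a multisynthetase complex, while others act alone. Transcription of many cytosolic synthetase genes is known to respond to amino acid shortage through the factor ATF4, called crc in flies.

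S2 is a fly line of embryonic, blood cell-like origin. Flasks received 30 µg/ml dsRNA on days 0, 1 and 3 and were lysed on day 5, and 6 µg of total RNA went onto each one-colour Affymetrix array. There were 4 arrays for Rrp4 dsRNA, 2 each for the cap and ring subunits Csl4, Rrp40, Ski6, Mtr3 and Rrp46, 2 each for Rrp6, Rrp47 and Dis3, and 2 for dsRNA against GFP, a gene foreign to flies. Csl4, Rrp4 and Rrp40 form the cap of the exosome, and the ring below it holds Mtr3, Rrp46 and Ski6. Dis3 and Rrp6 are exonucleases and Rrp47 binds Rrp6. The study set out to list the mRNAs that the exosome acts on. All arrays come from 1 line. Each array of a depletion is labelled as a biological repeat, while the 2 GFP arrays are labelled only as numbered controls. How separate the cultures behind the arrays were is not described. The p-values therefore measure only the spread between these arrays, part of which may be technical.

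The labels could not all be checked against the targeted genes. In its own arrays the target was lower than in GFP arrays for 2 groups (Dis3 and Rrp6), higher for 4 (Csl4, Rrp40, Ski6 and Rrp47) and not past the test for 3, so each group is the one labelled with that name throughout. The Rrp4 arrays stood apart, with poly-A control RNAs at -4.72 to -2.61 relative to the hybridization controls (log2), against 0.48 to 1.66 on the other 18 arrays. Signal of the 18S ribosomal RNA control averaged 13.57 in Ski6, 13.62 in Dis3, 13.35 in Rrp6 and 12.85 in Mtr3 arrays, against 8.93 in GFP arrays (log2, n = 2 each). It averaged 11.23 in Csl4, 10.51 in Rrp47, 9.52 in Rrp46, 7.70 in Rrp40 and 7.61 in Rrp4 arrays. The 2 GFP arrays read 7.97 and 9.90. Of the 10 hemocyte markers, srp, ush, Hml, crq and drpr averaged 9.995 to 12.62 in GFP arrays and the other 5 averaged 7.10 (ItgaPS4), 5.59 (eater), 4.09 (NimC1), 3.29 (Pxn) and 2.78 (Sr-CI), with NimC1 and Sr-CI too dim to be tested. The muscle markers up and Mlc2 were at the lowest value used on 10 and 15 of 22 arrays. Of 8 hemocyte markers tested, 2 were higher and 3 lower over all depletions, and the summed signal of the 10 on the array ranged from 3737 to 19977 in depletion arrays and from 10541 to 18337 in GFP arrays. Among markers of other cells, the germ cell gene bam was the only 1 of 5 tested that was called, 2.27 ± 0.32 higher (log2 ± SE, adjusted p = 6.3e-05), with the 4 germ cell markers on the array summing to 45.5 to 215 in depletion arrays and 71.8 to 92.2 in GFP arrays. The neuronal markers summed to 198 to 559 in depletion arrays and 248 to 464 in GFP arrays, those of fat body to 45.1 to 112 in depletion arrays and 64.9 to 80.9 in GFP arrays, and those of muscle to 6.47 to 26.4 in depletion arrays and 6.47 to 16.8 in GFP arrays. The part of these differences in the results was not tested. For Rrp4 it could not be, since all 4 of its arrays and no others had the low poly-A controls. An effect of Rrp4 dsRNA cannot be told apart from whatever else set those arrays apart.

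Over all 9 depletions, 4 of the 15 cytosolic synthetase genes differed from GFP and none of the 14 mitochondrial ones did. ValRS, AsnRS and ThrRS fell, by 0.75, 0.63 and 0.50 on the log2 scale, and GlyRS rose by 0.30. Calls rest on a limma fit of all 22 arrays, with p adjusted by Benjamini-Hochberg over the 9385 probe sets tested and a threshold of 0.05. By that rule 10.3% of all tested probe sets were lower and 11.6% higher. Against these shares, 3 of 29 lower is close to the background and 1 of 29 higher is below it. Among the cytosolic genes alone 3 of 15 were lower and 1 higher, beside 821 and 829 of the 7222 genes tested. The median change was -0.11 for the cytosolic genes and -0.04 for the mitochondrial ones, beside -0.04 for all 7222 genes tested. At an unadjusted p under 0.05, 7 of 15 cytosolic and 0 of 14 mitochondrial genes passed, beside 2468 of the 7222 genes tested.

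**Figure D1:**
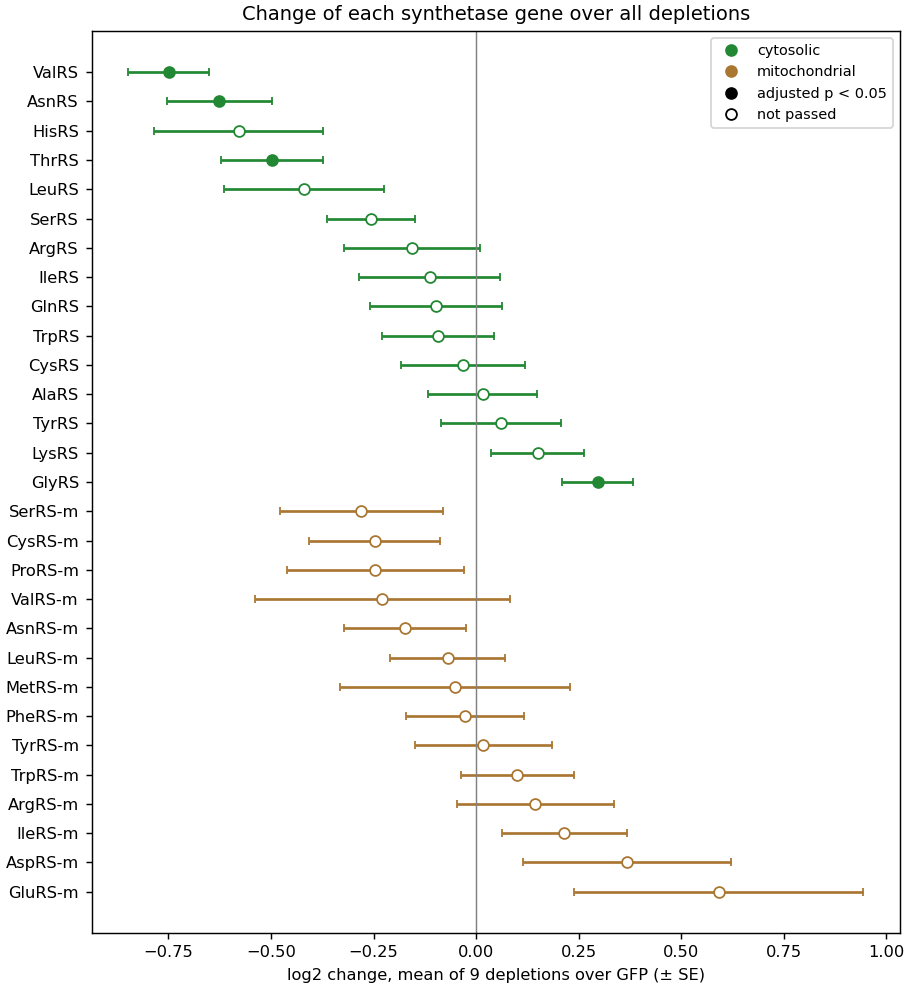
Log2 change of each of the 29 synthetase genes, mean of the 9 depletions over GFP, with its standard error from the fit over 22 arrays. Filled points passed the test: ValRS, AsnRS and ThrRS at -0.75, -0.63 and -0.50, and GlyRS at 0.30, all counted as cytosolic by symbol.

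ValRS, which charges tRNAs with valine (probe set 1638259_s_at), had the lowest change of the 29 over all depletions. Its log2 signal over the 20 depletion arrays had a lowest value of 10.01, a median of 10.53 and a highest value of 11.15, against 11.29 and 11.20 on the GFP arrays. Every depletion array lay below both GFP arrays, which held for 3.45% of all tested probe sets on the lower side. The mean change was -0.75 ± 0.10 (SE) with an adjusted p of 3.03e-05, so the signal fell by 40.5%. This call held under all 36 alternatives, with values of -0.84 to -0.40.

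AsnRS, the asparagine enzyme (1624475_at), was the other member whose arrays did not overlap. The depletion arrays had a lowest log2 signal of 11.03, a median of 11.62 and a highest of 11.90, and the GFP arrays read 12.14 and 12.12. Its change was -0.63 ± 0.13 (adjusted p = 0.00166), so the signal fell by 35.2%. Without normalization the change was -0.30 and did not pass, in values where the median of all probe sets over GFP was 0.46.

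ThrRS, the threonine enzyme (1640984_s_at), had depletion arrays from 11.01 to 12.10 with a median of 11.61, and GFP arrays at 12.22 and 11.97. Of the 20 depletion arrays 17 lay below both GFP arrays and the other 3 between them. The change was -0.50 ± 0.12 (adjusted p = 0.0076). It was not called without GFP array 1 (-0.37) or without normalization (-0.16, adjusted p = 0.337). Relative to the median of all probe sets, the value without normalization was -0.62.

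GlyRS, the glycine enzyme (1636948_a_at), moved the other way by a small amount. Depletion arrays ranged from 10.54 to 11.08 with a median of 10.87, against 10.59 and 10.55 on the GFP arrays, and 19 of 20 lay above both. The change was 0.30 ± 0.09 (adjusted p = 0.020), a signal 22.8% higher. It kept this direction but not the call without GFP array 1 (0.31, adjusted p = 0.11), without GFP array 2 (0.28, 0.13), with median centring (0.24, 0.20) and with array weights (0.30, 0.11).

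**Figure D2:**
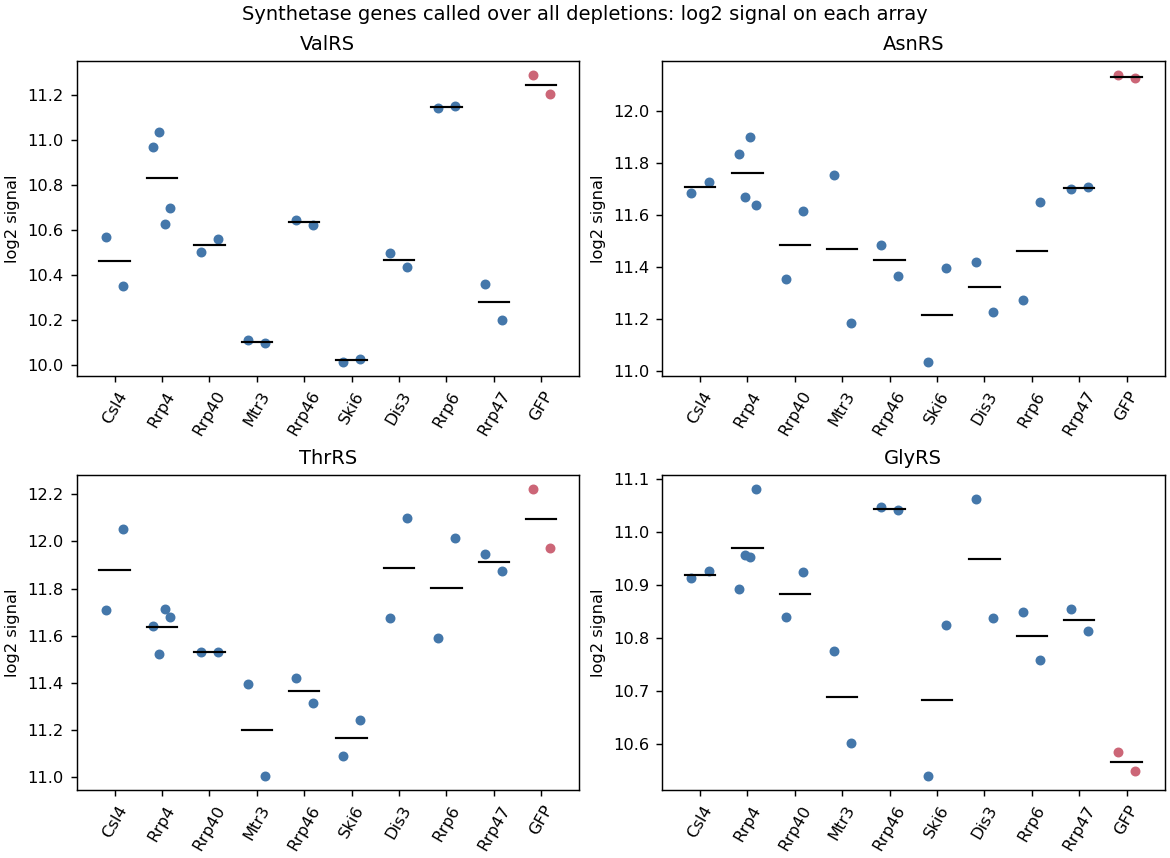
Log2 signal of ValRS, AsnRS, ThrRS and GlyRS on each array, by dsRNA group, with the 9 depletions left of GFP. Points are arrays (4 for Rrp4, 2 for each other group) and bars are group means. All 20 depletion points of ValRS and AsnRS sit below both GFP points, and the Rrp6 points of ValRS (11.14 and 11.15) sit nearest to them.

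HisRS, the histidine enzyme (1631877_a_at), did not pass over all depletions, at -0.58 ± 0.21 (adjusted p = 0.054). Its arrays were spread over a wide range, from 9.64 to 11.27 with a median of 10.18 in depletion arrays, against 11.09 and 10.57 in GFP arrays. It passed when any of 6 arrays was left out, at -0.84 without GFP 2, -0.61 without Csl4 2, -0.53 without Dis3 1, -0.63 without Dis3 2, -0.60 without Mtr3 1 and -0.61 without Rrp6 2. LeuRS, at -0.42 ± 0.19 (adjusted p = 0.14), passed without Dis3 1, at -0.48, and SerRS, at -0.26 ± 0.11 (0.10), without GFP 2, at -0.42. The other 8 cytosolic genes lay between -0.16 (ArgRS) and 0.15 (LysRS).

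The mitochondrial genes lay between -0.28 (SerRS-m) and 0.59 (GluRS-m). GluRS-m, the mitochondrial glutamate enzyme, had GFP arrays at 4.32 and 6.66, so that 19 of 20 depletion arrays, from 5.64 to 6.75, fell between them. Without GFP 2 its change was 1.76 and called, and without GFP 1 it was -0.58 and not called. IleRS-m was likewise called without GFP 2, at 0.54, against 0.21 with all arrays. AspRS-m read above both GFP arrays (9.33 and 9.36) on 16 of 20 depletion arrays and below both on 4, with a change of 0.37 ± 0.25 (adjusted p = 0.34).

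Set against GFP one at a time, the depletions gave 36 calls among the 29 genes, 30 lower and 6 higher, of which 34 fell on cytosolic genes and 2 on mitochondrial ones. All 9 depletions share the 2 GFP arrays, so their changes are given side by side and are not independent of each other. Ski6 and Mtr3 each had 5 lower and 0 higher members. Rrp4 had 5 lower and 2 higher, Rrp46 4 lower and 1 higher, Rrp40 4 lower, Dis3 3 lower and 1 higher, Rrp47 2 lower and 1 higher, Csl4 1 lower and 1 higher, and Rrp6 1 lower. Over all probe sets the share called in either direction was 18.6% for Csl4, 23.8% for Rrp4, 20.3% for Rrp40, 18.9% for Mtr3, 19.8% for Rrp46, 22.7% for Ski6, 21.2% for Dis3, 8.82% for Rrp6 and 20.5% for Rrp47. Pooled over both classes and directions, the members' counts out of 29 are near or below these shares. Cytosolic genes alone had 5 of 15 lower in Mtr3 and in Ski6 arrays, beside 700 and 855 of the 7222 genes tested. In Rrp4, Rrp40 and Rrp46 arrays 4 of 15 were lower, beside 900, 760 and 742 genes. For Csl4, Dis3, Rrp6 and Rrp47 these counts were 1, 2, 1 and 2, beside 713, 778, 357 and 771. Such counts share the GFP arrays and carry no test. Median changes of the cytosolic genes were lowest for Mtr3 (-0.37) and Ski6 (-0.36), beside -0.04 and -0.05 for all genes tested, and nearest to 0 for Dis3 (-0.05).

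**Figure D3:**
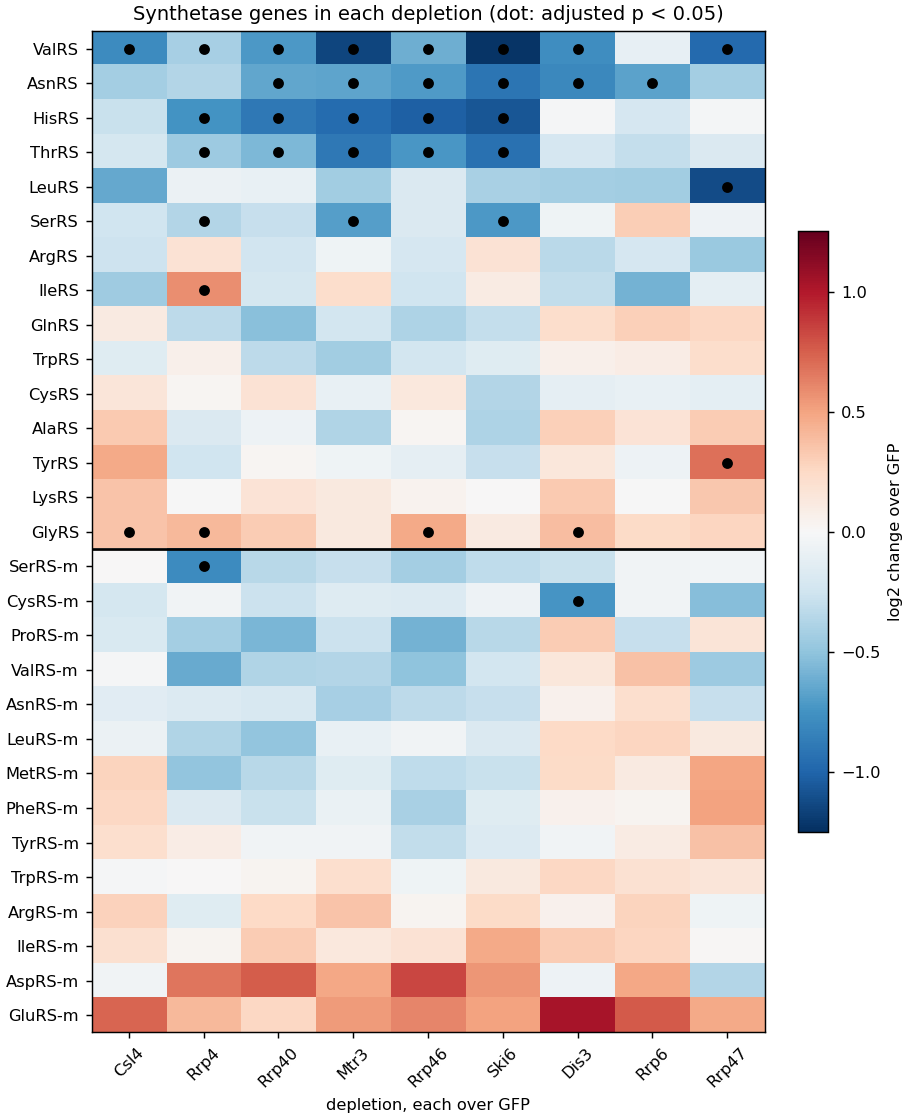
Log2 change over GFP of each synthetase gene (down the page, cytosolic above the black line and mitochondrial below it) in each depletion (across), with dots where the adjusted p was under 0.05. ValRS has dots in 8 of 9 depletions, and of the 36 dots 34 lie above the line.

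ValRS fell in 8 of the 9 depletions. The arrays labelled Ski6 read 10.01 and 10.03 and those labelled Mtr3 10.11 and 10.10, against 11.29 and 11.20 on the GFP arrays, for changes of -1.22 ± 0.13 (adjusted p = 3.7e-06) and -1.14 ± 0.13 (8.1e-06). Rrp47 arrays read 10.36 and 10.20, Csl4 arrays 10.57 and 10.35, and Dis3 arrays 10.50 and 10.43, with changes of -0.97, -0.79 and -0.78. Rrp40 (10.50 and 10.56, change -0.71) and Rrp46 (10.65 and 10.62, change -0.61) followed. Rrp4 arrays read 10.97, 11.04, 10.62 and 10.70, arrays 1 and 2 above arrays 3 and 4, with a change of -0.41 ± 0.11 (adjusted p = 0.015). That call was lost with Rrp4 arrays 1 and 2 alone (-0.25, adjusted p = 0.148), with the replicate block (-0.24, 0.168), with median centring (-0.37, 0.0878), with GFP alone in the fit (-0.39, 0.0521) and without GFP 1 (-0.37, 0.12). Without normalization the Rrp4 change was 1.09, and the Mtr3 (-0.30) and Ski6 (-0.37) calls were lost too. Relative to the median of all probe sets in those values, ValRS was -0.49 in Rrp4, -1.28 in Mtr3 and -1.39 in Ski6 arrays. With GFP alone in the fit the Dis3 call was lost (-0.81, adjusted p = 0.0885). In Rrp6 arrays, at 11.14 and 11.15, the change was -0.10 ± 0.13 and did not pass.

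AsnRS fell in 6 depletions, by 0.92 in Ski6, 0.81 in Dis3, 0.71 in Rrp46, 0.67 in Rrp6, 0.66 in Mtr3 and 0.65 in Rrp40 arrays on the log2 scale (SE 0.17 each). The Ski6 arrays read 11.03 and 11.39 and the Dis3 arrays 11.42 and 11.23, against 12.14 and 12.12 in GFP. The Rrp6 arrays read 11.27 and 11.65, and this was the only synthetase gene called in that depletion. Its adjusted p of 0.020 became 0.094 without GFP 1 (-0.66), 0.067 without GFP 2 (-0.68) and 0.11 without Rrp6 1 (-0.48). The Rrp40 call was lost without GFP 1 (-0.64) or Rrp40 1 (-0.52), the Mtr3 call without GFP 1 (-0.65) or Mtr3 2 (-0.38), and the Rrp46 call without Rrp46 2 (-0.64). With array weights the Dis3 (adjusted p = 0.0822) and Rrp6 (0.393) calls were lost, and with GFP alone in the fit those of Mtr3 (0.0671) and Rrp6 (0.322). Changes that did not pass were -0.37 in Rrp4 and -0.43 in both Csl4 and Rrp47 arrays.

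HisRS and ThrRS were each lower in the arrays labelled Rrp4, Rrp40, Mtr3, Rrp46 and Ski6. HisRS read 9.75 and 9.77 on the Ski6 arrays, 9.88 and 9.75 on the Rrp46 arrays, 10.10 and 9.64 on the Mtr3 arrays and 9.97 and 9.90 on the Rrp40 arrays, against 11.09 and 10.57 on the GFP arrays. Its changes were -1.07, -1.02, -0.96 and -0.90 (SE 0.28 each). Rrp4 arrays read 9.90, 9.83, 10.33 and 10.26, with a change of -0.75 ± 0.24. Without GFP array 1, the higher of the pair, none of the 5 was called, at -0.80 to -0.48. The calls were also lost without either Ski6 array (-1.06 and -1.08), either Rrp46 array (-1.09 and -0.95), either Rrp40 array (-0.93 and -0.86), Mtr3 2 (-0.73), and Rrp4 1 (-0.69) or Rrp4 2 (-0.67), each for its own group. In the other 4 depletions HisRS lay -0.28 to -0.01 from GFP.

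ThrRS read 11.09 and 11.24 on the Ski6 arrays and 11.39 and 11.01 on the Mtr3 arrays, against 12.22 and 11.97 on the GFP arrays. The changes were -0.93 ± 0.17 (adjusted p = 0.00067) and -0.90 ± 0.17 (0.0010), and no single array decided them. Without normalization they were -0.13 and -0.12 and did not pass. In those values the median of all probe sets over GFP was 1.02 in Ski6 and 0.97 in Mtr3 arrays. Relative to that median ThrRS was -1.14 and -1.09. Rrp46 (-0.73), Rrp40 (-0.57) and Rrp4 arrays (-0.46) followed, and these 3 calls were lost without GFP 1, at -0.60, -0.44 and -0.33. The Rrp46 call also went without Rrp46 2 (-0.67), the Rrp40 call without either of its arrays (-0.56 each) and the Rrp4 call without Rrp4 1 (-0.45) or Rrp4 2 (-0.41). In Csl4, Dis3, Rrp6 and Rrp47 arrays ThrRS lay -0.29 to -0.18 from GFP and did not pass.

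SerRS, the serine enzyme (1638642_at), fell in 3 depletions. The Ski6 arrays read 11.16 and 11.15 and the Mtr3 arrays 11.31 and 11.06, against 12.04 and 11.70 on the GFP arrays, for changes of -0.71 ± 0.14 (adjusted p = 0.0017) and -0.69 ± 0.14 (0.0025). The Mtr3 call was lost without GFP 1 (-0.52, adjusted p = 0.053). The Rrp4 change of -0.37 ± 0.12 (adjusted p = 0.040) did not hold under 19 of 36 alternatives, among them leaving out GFP 1 (-0.20), Rrp4 3 (-0.35), Rrp4 4 (-0.34) or either array of Rrp40, Rrp46, Rrp47 or Ski6 (-0.37 each).

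GlyRS rose in 4 depletions, by 0.48 in Rrp46, 0.40 in Rrp4, 0.38 in Dis3 and 0.35 in Csl4 arrays. The Rrp46 arrays read 11.05 and 11.04 and the Rrp4 arrays 10.89, 10.96, 10.95 and 11.08, against 10.59 and 10.55 in GFP. The calls were lost without either Rrp46 array (0.47 and 0.48), without GFP 2 for Rrp4 (0.39), without GFP 1 (0.40), GFP 2 (0.36) or Dis3 1 (0.27) for Dis3, and under 24 of 37 alternatives for Csl4. Other processing ended calls too. With median centring the Rrp46 change was 0.30 (adjusted p = 0.242) and the Dis3 change 0.42 (0.0829), and without normalization they were 0.49 (0.0562) and 0.10 (0.724). Relative to the median of all probe sets, the values without normalization were 0.35 and 0.29. The Dis3 call was also lost with array weights (0.38, adjusted p = 0.251), without the Rrp4 group (0.39, 0.0509) and with GFP alone in the fit (0.39, 0.44). The Rrp4 call was lost with the replicate block (0.36, adjusted p = 0.0741) and with Rrp4 arrays 1 and 2 alone (0.37, 0.0584).

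The remaining 5 calls each concerned 1 depletion. In the arrays labelled Rrp47, LeuRS read 9.41 and 9.30 against 10.44 and 10.49 in GFP, with a change of -1.12 ± 0.26 (adjusted p = 0.00615), a call lost without Rrp47 2 (-1.06, 0.051). TyrRS, the tyrosine enzyme, read 11.39 and 11.33 in Rrp47 arrays against 10.84 and 10.51 in GFP, higher by 0.69 ± 0.20 (adjusted p = 0.020), a call lost without GFP 2 (0.52), Rrp47 1 (0.65) or Rrp47 2 (0.71).

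IleRS, the isoleucine enzyme, read 12.43, 12.17, 12.14 and 12.06 in Rrp4 arrays against 11.56 and 11.68 in GFP, with a change of 0.58 ± 0.20 (adjusted p = 0.044) that lost its call under 23 of 36 alternatives. SerRS-m, which charges the mitochondrial serine tRNAs, read 7.04, 7.25, 7.41 and 7.62 in Rrp4 arrays against 7.98 and 8.25 in GFP. Its change of -0.79 ± 0.23 (adjusted p = 0.021) lost its call without GFP 1 (-0.92), GFP 2 (-0.65) or Rrp4 1 (-0.69), with median centring (-0.50) and with Rrp4 arrays 3 and 4 alone (-0.60). CysRS-m read 7.88 and 7.24 in Dis3 arrays against 8.05 and 8.55 in GFP, with a change of -0.74 ± 0.22 (adjusted p = 0.021). That call was lost without Dis3 2 (-0.42) or GFP 2 (-0.49), with median centring (-0.54) and with array weights (-0.74, adjusted p = 0.137), among others.

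The depletions were then compared with each other, which does not use the GFP arrays as a reference. An F test over the 9 depletion means called 13 of the 29 genes, 10 cytosolic and 3 mitochondrial, beside 57.7% of all tested probe sets. The distance between the highest and the lowest depletion mean had a median of 0.75 for cytosolic and 0.77 for mitochondrial genes (log2), beside 0.96 for all genes tested. The cytosolic genes called were AlaRS, GlnRS, HisRS, IleRS, LeuRS, SerRS, ThrRS, TrpRS, TyrRS and ValRS, and the mitochondrial ones AspRS-m, LeuRS-m and PheRS-m. AsnRS (adjusted p = 0.0577) and GlyRS (0.0867) did not pass.

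AlaRS, the alanine enzyme, was highest in Csl4 arrays (11.19 and 11.45) and lowest in Ski6 arrays (10.67 and 10.55). TrpRS, the tryptophan enzyme, was highest in Rrp47 arrays (11.16 and 11.21) and lowest in Mtr3 arrays (10.72 and 10.35). GlnRS was highest in Rrp6 arrays (10.39 and 10.91) and lowest in Rrp40 arrays (9.80 and 9.87). For each of these 3 genes the highest and the lowest group did not overlap. Picking the extreme groups out of 9 makes this likely, and its share over all probe sets was not counted.

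LeuRS-m, the mitochondrial leucine enzyme, was highest in Rrp6 arrays (8.07 and 8.53) and lowest in Rrp40 arrays (7.50 and 7.59). PheRS-m, the mitochondrial phenylalanine enzyme, was highest in Rrp47 arrays (10.18 and 10.09) and lowest in Rrp46 arrays (9.21 and 9.24). AspRS-m, the mitochondrial aspartate enzyme, was highest in Rrp46 arrays (10.16 and 10.21) and lowest in Rrp47 arrays (8.97 and 8.99), although a single Csl4 array (8.80) and a single Dis3 array (8.63) read lower still. The highest and lowest groups are picked after the fact and carry no test of their own.

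**Figure D4:**
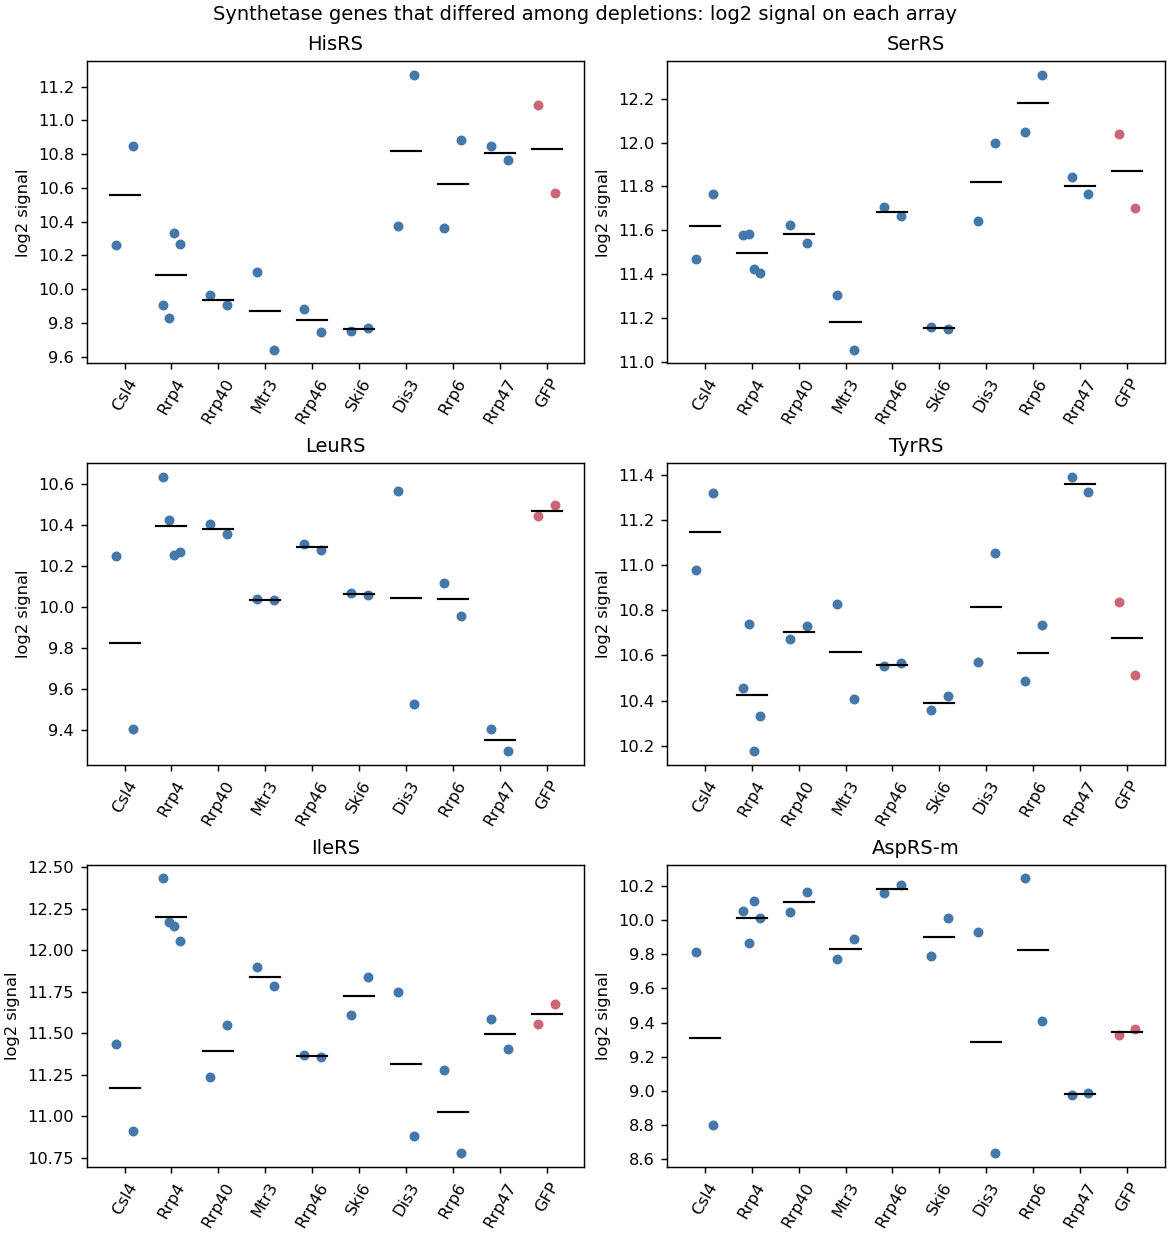
Log2 signal of HisRS, SerRS, LeuRS, TyrRS, IleRS and AspRS-m on each array, with the 9 depletions left of GFP, points for arrays and bars for group means. The Csl4 and Dis3 arrays are far apart for LeuRS (10.25 and 9.40, 10.56 and 9.53) and AspRS-m (9.81 and 8.80, 9.93 and 8.63). The 4 Rrp4 arrays of IleRS lie above all others. For 327 of the 7222 genes tested, the Rrp4 arrays lay above every other depletion array.

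Each depletion was also set against the mean of the other 8, giving 25 calls, 13 higher and 12 lower. Rrp6 arrays were high for SerRS, at 12.05 and 12.31, which is 0.64 ± 0.11 above the other depletions (adjusted p = 0.00034). They were high too for ValRS, 0.73 ± 0.10 above the others (3.6e-05), and both calls held with any 1 array left out but not without normalization (-0.07 and 0.05). In the values without normalization the median of all probe sets over GFP was -0.17 in Rrp6 arrays, beside 0.46 for all depletions. IleRS was lower in Rrp6 arrays (-0.53, lost without Rrp6 2 at -0.28) and AsnRS-m higher (0.43, lost under 20 of 36 alternatives, among them without Rrp6 1 at 0.39 or Rrp6 2 at 0.47), so 4 of 29 members were called beside 25.6% of all probe sets.

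Rrp4 had 8 calls beside 36% of all probe sets. IleRS stood 0.78 ± 0.13 above the other depletions (adjusted p = 0.00028), with all 4 arrays above every other depletion array. That separation on the higher side held for 327 of the 7222 genes tested. ValRS (0.38) was higher and SerRS-m (-0.57) lower, both with any 1 array left out, but neither call held with Rrp4 arrays 3 and 4 alone (0.20 and -0.38). ArgRS (0.38), AsnRS (0.29) and LeuRS (0.39) were higher and TyrRS (-0.35) and LeuRS-m (-0.35) lower, and these lost their calls without at least 1 Rrp4 array, at 0.34 to 0.39, 0.24 to 0.26, 0.31 to 0.44, -0.32 to -0.27 and -0.31. LeuRS also lost its call without any of 13 other arrays.

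Rrp47 had 5 calls beside 20.1%. TyrRS (0.70), PheRS-m (0.59) and HisRS (0.62) were higher and LeuRS (-0.78) and AspRS-m (-0.83) lower than in the other depletions. Each call was lost without either Rrp47 array, at 0.67 and 0.73, 0.55 and 0.63, 0.58 and 0.66, -0.84 and -0.73, and -0.82 and -0.83, and HisRS lost its call without 11 further arrays. Fits without an Rrp47 array left 1 array in that group, and the values stayed close to those from both.

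Dis3 had 3 calls beside 19.3%: HisRS (0.64) and ProRS-m (0.63) higher and CysRS-m (-0.56) lower. All 3 were lost without Dis3 array 2, at 0.19, 0.18 and -0.24, and the Dis3 arrays were far apart, at 10.37 and 11.27 for HisRS. HisRS and ProRS-m also lost their calls without any of 9 and 15 other arrays, at 0.60 to 0.65. Ski6 had 3 lower calls beside 5.44%, ValRS (-0.53), SerRS (-0.52) and ThrRS (-0.49), and Mtr3 had 2 beside 3.02%, SerRS (-0.49) and ValRS (-0.44). All 5 lost their calls without either array of their own group, at -0.57 to -0.41 for Ski6 and -0.61 to -0.36 for Mtr3. No member was called for Csl4, Rrp40 or Rrp46 by limma, where 3.41%, 2.19% and 2.09% of all probe sets were. At an unadjusted p under 0.05 there were 5, 2 and 4 of 29, beside 1763, 1519 and 1382 of the 7222 genes tested.

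The core subunits (Csl4, Mtr3, Rrp4, Rrp40, Rrp46 and Ski6) were compared with the exonucleases and their partner. Against the mean of Rrp6 and Rrp47, 12 of the 29 genes differed in core arrays, 10 lower and 2 higher, beside 38.9% of all probe sets. The median change was -0.28 for the 15 cytosolic and -0.25 for the 14 mitochondrial genes, beside -0.06 for all genes tested. Lower in core arrays were AlaRS, GlnRS, HisRS, SerRS, ThrRS, TrpRS, TyrRS, ValRS, LeuRS-m and PheRS-m, and higher were IleRS and LeuRS. The comparison averages the core groups, and Csl4 did not follow the others for every gene. Csl4 arrays averaged 11.32 for AlaRS, 11.88 for ThrRS, 11.15 for TyrRS and 9.90 for PheRS-m. Each lay above the Rrp6 mean (11.16, 11.80, 10.61 and 9.67). For GlnRS, HisRS, SerRS, TrpRS, ValRS and LeuRS-m the Csl4 mean lay below that of Rrp6.

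HisRS in the 14 core arrays had a lowest value of 9.64, a median of 9.90 and a highest of 10.85, against 10.36 to 10.89 in the 4 Rrp6 and Rrp47 arrays. In 13 core arrays it lay below all 4, with a difference of -0.71 ± 0.16 (adjusted p = 0.0032). SerRS ranged from 11.06 to 11.77 with a median of 11.51 in core arrays and from 11.76 to 12.31 in Rrp6 and Rrp47 arrays, a difference of -0.54 ± 0.08 (adjusted p = 0.00025).

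GlnRS, the glutamine enzyme, ranged from 9.76 to 10.59 with a median of 9.996 in core arrays and from 10.39 to 10.91 in the other 4, a difference of -0.55 ± 0.12 (adjusted p = 0.0032). For SerRS and GlnRS too, 13 of 14 core arrays lay below all 4 others. These 3 calls held with any 1 array left out but not without normalization (-0.27 for HisRS, -0.17 for SerRS and -0.10 for GlnRS). In the values without normalization the median of all probe sets over GFP ran from 0.01 (Rrp40) to 1.58 (Rrp4) in core groups. It was -0.17 in Rrp6 and 0.59 in Rrp47 arrays. LeuRS-m had 13 core arrays below all 4 as well (-0.41 ± 0.11), and lost its call without Rrp6 2 (-0.29) or Rrp47 1 (-0.35). How many of all probe sets had 13 of 14 core arrays below the other 4 was not counted. Full separation on the lower side held for 52 of the 7222 genes tested and for 0 members.

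The other 8 calls of this comparison lay between -0.41 and 0.47, and all were lost when some Rrp6 or Rrp47 array was left out. Without Rrp6 2 those lost were AlaRS (-0.22), ThrRS (-0.29), TrpRS (-0.26), TyrRS (-0.28), PheRS-m (-0.31), LeuRS (0.43) and IleRS (0.23). Without Rrp47 1 those lost were AlaRS (-0.34), TyrRS (-0.33), ValRS (-0.24), LeuRS (0.50) and IleRS (0.40), and without Rrp47 2 TrpRS (-0.35), TyrRS (-0.36), LeuRS (0.44) and IleRS (0.31). IleRS lost its call without any of 12 further arrays. For ValRS, the Rrp6 arrays (11.14 and 11.15) lay above all 14 core arrays, while the Rrp47 arrays (10.36 and 10.20) lay within the core range of 10.01 to 11.04.

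Against Dis3 arrays, 8 members differed in core arrays, 7 lower and 1 higher, beside 24.8% of all probe sets. HisRS (-0.82), ProRS-m (-0.72), GlnRS (-0.50), LeuRS-m (-0.46), ThrRS (-0.42), AlaRS (-0.41) and SerRS (-0.37) were lower and CysRS-m (0.59) higher. CysRS-m ranged from 7.89 to 8.42 with a median of 8.16 in the 14 core arrays, all of them above the Dis3 arrays at 7.88 and 7.24. Such separation held for 447 of the 7222 genes tested on the higher side and 498 on the lower. GluRS-m, which was not called, lay on the lower side, with core arrays at 5.64 to 6.24 and Dis3 arrays at 6.30 to 6.75. All 8 lost their calls without Dis3 array 2, at -0.37 (HisRS), -0.26 (ProRS-m), -0.24 (GlnRS), -0.29 (LeuRS-m), -0.21 (ThrRS), -0.20 (AlaRS), -0.19 (SerRS) and 0.27 (CysRS-m). All 8 were also lost with array weights, at adjusted p of 0.0836 to 0.245. AlaRS also lost its call without Csl4 1, Mtr3 2, Rrp40 1, Rrp46 2 or Ski6 2 (-0.40 to -0.38), and GlnRS without Ski6 2 (-0.49).

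Between the exonucleases, 2 members were lower in Dis3 than in Rrp6 arrays, beside 12.1% of all probe sets in either direction. ValRS read 10.50 and 10.43 in Dis3 arrays against 11.14 and 11.15 in Rrp6 arrays, a difference of -0.68 ± 0.13 (adjusted p = 0.0027) that held with any 1 array left out but was lost with median centring (-0.44, adjusted p = 0.0837) and with array weights (-0.68, 0.26). CysRS-m read 7.88 and 7.24 in Dis3 against 8.44 and 8.07 in Rrp6 arrays, a difference of -0.70 ± 0.22 (adjusted p = 0.044). It lost its call under 25 of 36 alternatives, among them leaving out Dis3 2 (-0.38), Rrp6 1 (-0.51) or any 1 of 12 other arrays.

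The members did not share 1 pattern over the groups. Over the 10 group means, correlations between pairs of cytosolic genes had a median r of 0.21 (105 pairs, -0.82 to 0.94) and between pairs of mitochondrial genes 0.22 (91 pairs, -0.91 to 0.91). The median was 0.03 between a cytosolic and a mitochondrial gene (210 pairs). HisRS and ThrRS were the most alike (r = 0.94), and AspRS-m and PheRS-m the least (r = -0.91). These are descriptions over 10 means that share libraries and normalization.

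Among the other 7221 genes tested, the profile most like that of ValRS belonged to gsb (r = 0.98), that of HisRS to Slh (0.97), that of ThrRS to ND-ACP (0.98), that of SerRS to gkt (0.98), that of AsnRS to Aldh7A1 (0.94) and that of GlyRS to CG18190 (0.89). Each is the highest of 7221 correlations over only 10 means.

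Grouped by enzyme biology, after the values were seen, the 5 cytosolic members that belong to the multisynthetase complex of mammals (ArgRS, GlnRS, IleRS, LeuRS and LysRS) had 0 calls over all depletions and 2 of 45 against single depletions. The 10 outside it had 4 calls and 32 of 90. A gene can count up to 9 times there: ValRS alone gave 8 of the 32, while AlaRS, CysRS and TrpRS gave 0. By the F test among depletions 3 of 5 inside and 7 of 10 outside were called, beside 57.7% of all tested probe sets. GluProRS and the scaffold proteins of the complex are not members and are not counted here. Median changes over all depletions were -0.11 inside and -0.17 outside the complex. By catalytic class, the 8 class I enzymes had 1 call (ValRS) and the 7 class II enzymes 3 (AsnRS, ThrRS and GlyRS). Of all probe sets, 8.82% to 23.8% were called in a single depletion, and 10.3% were lower and 11.6% higher over all depletions. The groups hold few genes and these counts carry no test.

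Of the neighbours in the pathway, none of the synthetase subunits and scaffold proteins whose symbols have another form differed over all depletions. GluProRS, the joined glutamate and proline enzyme of the complex, was at -0.38 ± 0.16 (adjusted p = 0.11), and beta-PheRS, a subunit of the cytosolic phenylalanine enzyme, at 0.36 ± 0.13 (0.0502). AIMP2 and AIMP3, scaffold proteins of the complex, were at -0.38 ± 0.14 (0.0597) and -0.32 ± 0.19. The others lay between -0.12 (AIMP1) and 0.15 (alpha-PheRS). In single depletions AIMP2 was called lower in Rrp4 (-0.85), Ski6 (-0.79), Mtr3 (-0.70), Rrp46 (-0.62) and Rrp40 arrays (-0.57). AIMP3 (-0.75) and AIMP1 (-0.56) were called lower in Rrp4 arrays, and GluProRS (-0.92) in Rrp47 arrays. Called higher was beta-PheRS, in Dis3 (0.85) and Rrp6 arrays (0.58). Of all probe sets, 8.82% to 23.8% were called in a single depletion. In the mitochondrion, GatB, a subunit of the amidotransferase that completes glutamine-charged tRNA, fell by 0.52 (1 of 2 subunits tested, adjusted p = 0.0081), and mEFTs, an elongation factor that recycles mEFTu, by 0.35 (1 of 4, adjusted p = 0.032). Of 3 cytosolic elongation factors tested, 0 were called, at 0.01 to 0.11.

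Genes of the amino acid and endoplasmic reticulum stress arm had 3 of 7 lower and 0 higher. Nmdmc, a mitochondrial folate enzyme, was at -1.12 ± 0.17 (adjusted p = 0.00012), aay, the last enzyme of serine synthesis, at -0.63 ± 0.15 (0.0053) and crc at -0.24 ± 0.07 (0.025). Gcn2 and PEK, the kinases upstream of crc, were at 0.31 ± 0.16 and 0.19 ± 0.16 and did not pass. Nor did Shmt (0.31 ± 0.16) and AsnS (-0.48 ± 0.30). In single depletions Gcn2 was called higher in Rrp4 (0.76) and Ski6 arrays (0.63), and PEK in Rrp4 (0.75) and Rrp46 arrays (0.75). Shmt was called higher in Csl4 (0.65), Dis3 (0.76) and Rrp47 arrays (0.76), and AsnS lower in Rrp6 arrays (-1.53). Single calls of Nmdmc, aay and crc were all lower. Of 4 genes of proline and cysteine supply, P5cr-2, which makes proline, was at -1.17 ± 0.23 (adjusted p = 0.0013) and Cbs, which makes cystathionine, at -0.76 ± 0.20 (0.0086), with 0 higher. These lists hold few genes, and their counts stand beside 10.3% lower over all probe sets.

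**Figure D5:**
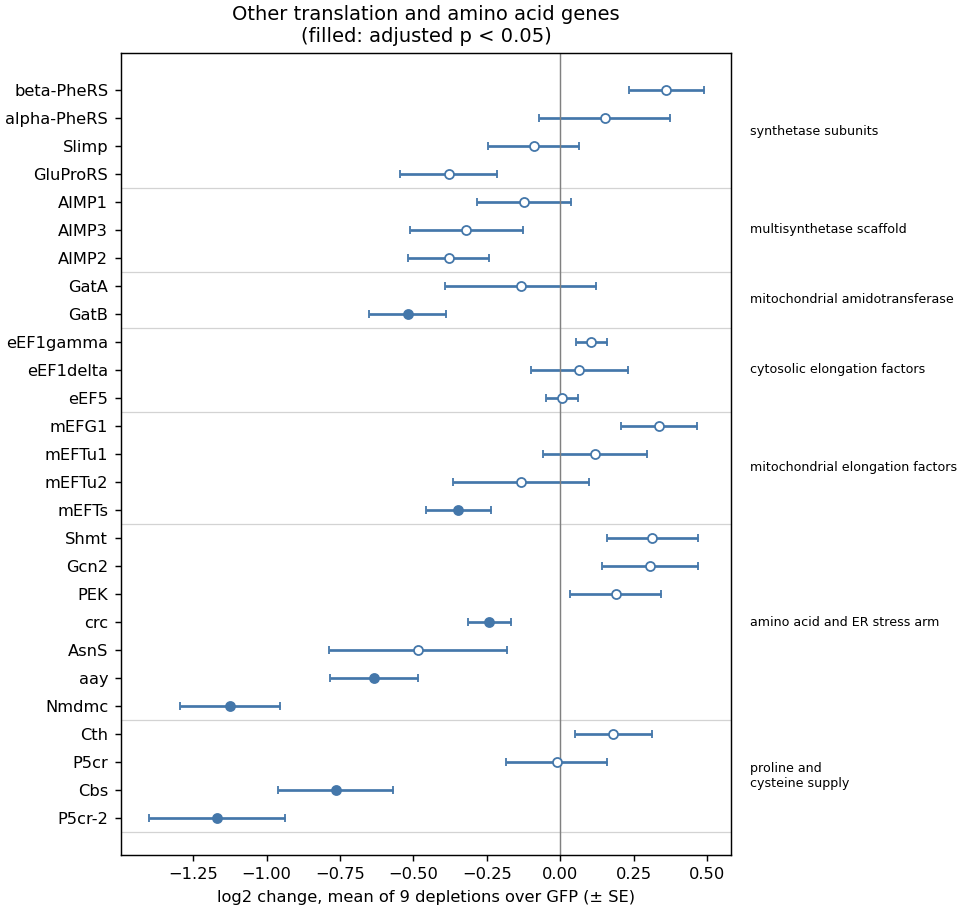
Log2 change, mean of the 9 depletions over GFP with its standard error, for genes beside the synthetases in translation and amino acid supply, grouped by list at the right. Filled points passed the test: GatB, mEFTs, crc, aay, Nmdmc, Cbs and P5cr-2, all lower.

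TrpRS was the only member with more than 1 probe set. The 3 gave changes of -0.09, -0.001 and -0.22 over all depletions, none called, and the brightest stands for the gene above. The probe sets of ValRS, ThrRS and IleRS end in _s_at, an Affymetrix mark for probes that may match more than 1 transcript, so a share of their signal may come from a related sequence. GluRS-m and TyrRS lie next to each other on their chromosome. In bulk RNA, fewer cells making a transcript and less of it per cell cannot be told apart.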

How the data were processed

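Expression was measured on 22 Affymetrix arrays. The intensities the authors deposited, 1 per probe set and not logged, were made with GCOS per the submitters' processing notes (version and genome build not given in the sources used here). Trimmed means (2% cut at both ends) were 500.0 on Rrp4 arrays and 125.9 to 345.6 on the others. From these intensities, 183 control probe sets were dropped, the remaining 18769 were quantile normalized, floored at the 10th percentile (3.234) and taken as log2. The 9385 at or above the median signal (log2 4.67) were tested in R 4.3.3 with limma 3.58.1, fitting 10 group means with an intensity trend (12 residual degrees of freedom, two-sided, Benjamini-Hochberg over all 9385). The number of arrays limits the precision. Correlations between arrays of a group were 0.932 to 0.965.

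Of the 18769, 13647 probe sets had 1 gene symbol, 402 several and 4720 none, and symbols were brought up to date through RefSeq. Values by array were given for members called over all depletions, in at least 2 single depletions or in the F test. Those of GluRS-m, SerRS-m and CysRS-m were given outside that rule, chosen after their values were seen. Members and lists were chosen with earlier results of these data known. Sequences and promoter motifs were not analysed here. Alternatives were other normalizations, floors and filters, array weights, a replicate block, fits with fewer arrays and leaving out each array. Where a group had 2 arrays, leaving 1 out left it with 1, so a call could be lost with little change in its value. The 2 fits with only part of the Rrp4 arrays were chosen after seeing the data.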

Additional observations from a re-analysis of the deposited data

Results flagged for a closer look

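The 13 genes below differed among the 9 depletions by the F test of that difference in limma, which 57.7% of all tested probe sets also did. The adjusted p was 5.79e-05 for ValRS, 0.000504 for SerRS, 0.00243 for IleRS, 0.00345 for ThrRS, 0.00402 for TyrRS, 0.00636 for AlaRS, 0.0074 for HisRS and 0.0121 for GlnRS. It was 0.0131 for LeuRS-m, 0.0146 for PheRS-m, 0.0327 for LeuRS, 0.038 for AspRS-m and 0.0484 for TrpRS. The highest and lowest depletion means were those of Rrp6 and Ski6 for ValRS and SerRS, of Rrp4 and Rrp6 for IleRS, and of Rrp47 and Ski6 for TyrRS. Calls for AspRS-m, TrpRS, LeuRS and PheRS-m were lost without 14, 13, 8 and 2 of the arrays left out in turn. For 7 genes the call was kept without the Rrp4 group, all of them cytosolic. Of the 29 members, 0 had an Rrp4 array standing apart from the other 3 by Dixon's test.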

How the results depend on the processing

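Over all depletions the 4 calls became 13 (12 higher) with the values as deposited, 9 without Csl4 2, Dis3 2 and Rrp6 2, and 2 to 7 when 1 array was left out, lowest without GFP 1 and highest without GFP 2. AspRS-m (higher) and HisRS, LeuRS, SerRS and SerRS-m (lower) were added without those 3 arrays. The 36 calls of single depletions against GFP became 103 as deposited (90 higher), 62 without the 3 arrays and 20 to 45 with 1 array left out, lowest without GFP 1 and highest without Dis3 1, and 12 held with any 1 array left out. The 13 differences among depletions became 29 as deposited, 22 with array weights, 7 without the Rrp4 group and 9 to 17 with 1 array left out. The 25 calls against the other 8 depletions became 153 as deposited, 16 without the filter, 60 with array weights, 16 with the replicate block, 8 without the Rrp4 group, 42 without the 3 arrays, 15 with Rrp4 arrays 3 and 4 alone, and 16 (without Rrp47 2) to 42 (without Dis3 1) with 1 array left out, when 5 held throughout. The 22 class calls became 39 as deposited (38 higher), 11 with array weights, 14 without the Rrp4 group, 13 without the 3 arrays and 15 to 31 with 1 array left out, when 4 held throughout. The replicate numbers were not taken as pairing arrays: of 45 pairs of groups, deviations of same-numbered arrays correlated over 0.1 in 4 and under -0.1 in 6. Those of Csl4, Dis3 and Rrp6 correlated with each other (0.31 to 0.41) and ran against those of Mtr3 and GFP (-0.35 to -0.18), and array 2 of these 3 groups left out together was 1 of the alternatives. With the replicate block the counts were 4 over all depletions, 30 against GFP one at a time, 11 in the F test and 18 for classes. Each depletion fitted with GFP alone gave 34 calls, and that fit has no value for the mean of all depletions. The cause of these changes was not tested.

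Of results called in either setting, signs turned only with the values as deposited, where the median of all probe sets over GFP was 0.46 for all depletions, 1.58 for Rrp4, 0.97 for Mtr3 and 1.02 for Ski6. Against GFP the turned values were 0.78 (HisRS), 1.08 (SerRS), 0.98 (ThrRS), 1.09 (ValRS) and 0.96 (SerRS-m) in Rrp4, 0.12 (AsnRS) and 0.0975 (SerRS) in Mtr3, 0.0942 (SerRS) in Ski6, and 0.49 (LeuRS-m) and 0.44 (PheRS-m) over all depletions. Against the other 8 they were 0.94 (TyrRS), 0.95 (LeuRS-m) and 0.73 (SerRS-m) in Rrp4, 0.0209 (SerRS) and 0.105 (ValRS) in Mtr3, 0.0173 (SerRS), 0.0415 (ThrRS) and 0.0321 (ValRS) in Ski6, -0.0857 (HisRS) and -0.0741 (ProRS-m) in Dis3, and -0.0688 (SerRS) and -0.42 (AsnRS-m) in Rrp6. Core against Rrp6 and Rrp47 gave 0.0329 (AlaRS), 0.0323 (TrpRS), 0.0666 (TyrRS), 0.16 (ValRS), 0.19 (LeuRS-m) and 0.0933 (PheRS-m). Core against Dis3 gave 0.44 (AlaRS), 0.32 (GlnRS), 0.0180 (HisRS), 0.47 (SerRS), 0.41 (ThrRS), 0.41 (LeuRS-m) and 0.14 (ProRS-m). Relative to the median of all probe sets, ValRS over all depletions was -0.86 in the deposited values.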
